A study of Mus musculus with 24 samples.

Results

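Transcripts of the circadian clock and of the Dbp family were followed in mouse lung during exposure to ozone. The 10 genes are Dbp, Tef and Hlf, the nuclear receptor genes Nr1d1 and Nr1d2, the period genes Per2 and Per3, the activator genes Arntl (also called Bmal1) and Clock, and the repressor gene Nfil3. They were taken by gene symbol from the annotation of the array, which gave 19 of its 22690 probe sets, and all 10 genes were among the 8008 genes tested. The genes were selected on their levels in these same arrays, so their differences between groups are given as a description with standard errors. Whether a member passed a test over all genes is given beside them. For genes selected in this way a pass is not independent evidence.

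The study compared the strains C3H/HeOuJ (OuJ), with a sufficient Tlr4, and C3H/HeJ (HeJ), with a dominant negative Tlr4, the receptor for bacterial lipopolysaccharide. Male mice breathed air or ozone, an oxidant gas, for 6, 24 or 48 h, and the left lung lobe of each of the 24 mice was hybridised to an Affymetrix array, 3 mice in each of the 8 groups. The stated question is what ozone does to lung transcripts in mice that lack a working Tlr4. Ozone concentration, age and hour of collection are not given in these sources, each strain has a single air group for all 3 exposure times, and the HeJ mutation is carried in every cell of the animal.

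The mammalian clock is a loop of transcription factors that runs in nearly every tissue, lung included. CLOCK and the product of Arntl bind E-boxes and activate the Per, Cry and Nr1d genes and Dbp. PER and CRY proteins then inhibit that activator pair, while NR1D1 and NR1D2 bind ROR elements and repress Arntl and Nfil3. DBP, TEF and HLF are activators of the PAR bZIP family that bind D-boxes, and NFIL3 competes for the same sites as a repressor. In a running clock the levels of Dbp, Nr1d1, Nr1d2 and the Per genes are therefore high at other hours of the day than those of Arntl and Nfil3.

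Values are signals on a linear scale that the authors scaled to a common mean, and differences are on the log2(signal + 16) scale, which understates changes of weak transcripts. A gene passed where the adjusted p of limma, taken over all 8008 genes, was under 0.05. Of all genes, the 3 exposed arrays lay wholly above or below the 3 air arrays in 17% at 6 h, 26.2% at 24 h and 29.9% at 48 h in OuJ. In HeJ these shares were 12.4%, 24.3% and 30.8%, and 23.9% for 48 h against 24 h. Groups that did not overlap are therefore given as a description only. Sample codes in the labels fall into 3 code series: the air and 6 h groups of each strain are in series 3, OuJ at 24 and 48 h is in series 10, and HeJ at these times is in series 13. A difference of 24 or 48 h from air, and a strain difference at these times, therefore cannot be told apart from the code series. The hour of collection is not given for any group. A difference between groups, also within a code series, therefore cannot be told apart from that hour. Comparisons within a code series are 6 h against air, 48 h against 24 h, the strains in air and the strain difference at 6 h. The 8 lung markers checked were high in all 24 arrays (Sftpc, a surfactant protein gene, between 27216.3 and 40838.8). Tlr4 had a signal of 220.6 ± 29.2 (SD, n = 3) in air in OuJ and 228.5 ± 15.6 in HeJ, which does not check the mutation.

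Promoter windows were available for 9 of the 10 genes, 13 windows in all, from 250 bases before to 50 after each start in the RefSeq table (GRCm38.p6). The 250 bases before the start are given for 4 members with a searched motif there. Clock and Nfil3 also held a searched motif before the start and are not printed. Whether these motifs bear on the array values was not tested. Capitals mark the motif: the D-box TTATGTAA in Per3 (chr4:151044666-151044915, minus strand), the E-box CACGTG in Tef (chr15:81802423-81802672, plus strand, the upstream of its 2 starts), AACGTG, which is the E-box variant CACGTT read on the other strand, in Nr1d1 (chr11:98775378-98775627, minus strand), and AGGTCA, the core of the ROR element, in Nr1d2 (chr14:18239107-18239356, minus strand).
Per3: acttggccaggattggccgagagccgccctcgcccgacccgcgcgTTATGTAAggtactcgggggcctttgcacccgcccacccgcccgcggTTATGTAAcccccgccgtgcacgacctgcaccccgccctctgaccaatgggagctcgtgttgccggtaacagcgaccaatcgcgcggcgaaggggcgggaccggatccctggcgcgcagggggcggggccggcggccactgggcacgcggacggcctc
Tef: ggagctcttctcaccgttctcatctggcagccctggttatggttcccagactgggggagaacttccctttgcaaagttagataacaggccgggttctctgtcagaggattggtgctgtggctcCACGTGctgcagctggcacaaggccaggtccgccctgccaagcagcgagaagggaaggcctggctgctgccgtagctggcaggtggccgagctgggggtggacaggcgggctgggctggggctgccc
Nr1d1: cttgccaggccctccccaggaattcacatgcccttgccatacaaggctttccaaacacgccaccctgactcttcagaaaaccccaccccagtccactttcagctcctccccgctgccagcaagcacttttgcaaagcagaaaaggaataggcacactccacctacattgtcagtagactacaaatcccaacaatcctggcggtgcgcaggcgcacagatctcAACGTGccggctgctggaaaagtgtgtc
Nr1d2: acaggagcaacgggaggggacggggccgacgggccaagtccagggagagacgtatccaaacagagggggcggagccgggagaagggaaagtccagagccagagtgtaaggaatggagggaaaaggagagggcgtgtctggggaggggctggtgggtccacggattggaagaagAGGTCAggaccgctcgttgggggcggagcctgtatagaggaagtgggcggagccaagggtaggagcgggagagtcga

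The D-boxes of Per3 began at positions -205 and -158, counted from the start site. A D-box, searched on both strands as TTATGTAA, TTATGCAA or TTACGTAA, was present in 1.78% of all 32851 windows of this length. The E-box CACGTG lay at -127 in the Tef window printed and at -138 in its other window, and 7.15% of all windows held one. The variant CACGTT lay at -28 in Nr1d1, with 4.68% of all windows. The core AGGTCA, read on either strand, lay at -77 in Nr1d2 and at -12 in Nfil3. It also lay at -119 in 1 of the 3 windows of Clock and 31 bases after the start in 1 of the 2 windows of Arntl. Of all windows 16.3% held it, and of all genes with a window 18.1% did. The windows of Dbp and Hlf held none of these letters, and a match is a description of the sequence, not a bound site.

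Dbp, the activator whose transcript swings most widely in many tissues, had the widest range of the PAR bZIP genes. In air its signal was 2192.8, 2288.7 and 1937.4 in the 3 OuJ mice and 2078.5, 2286.3 and 2695.2 in the 3 HeJ mice. After 24 h of ozone it was 1072.8, 718.9 and 274.1 in OuJ and 258.9, 164.8 and 173.2 in HeJ. After 48 h it was 339.4, 1072.1 and 858.9 in OuJ and 248.2, 354.2 and 295.1 in HeJ. All 12 arrays of 24 and 48 h lay below all 6 air arrays, and the HeJ arrays of 24 h lay below the OuJ arrays of 24 h. After 6 h the signals were 1410.5, 2513.9 and 1491.5 in OuJ and 1889.3, 2274 and 856 in HeJ, and overlapped those in air in both strains. The difference from air was -3.48 ± 0.40 (log2 ± SE, 3 arrays per group) at 24 h and -2.92 ± 0.40 at 48 h in HeJ, 11.2-fold and 7.55-fold lower on this scale. In OuJ it was -1.81 ± 0.40 at 24 h and -1.63 ± 0.40 at 48 h. All 4 differences passed; without OuJ 24 h array 3 the OuJ difference at 24 h was -1.27 ± 0.38, without OuJ 48 h array 1 that at 48 h was -1.14 ± 0.39, and neither then passed. The other probe set of Dbp gave -4.38 and -3.43 (SE 0.48) in HeJ and -2.05 and -1.82 in OuJ at 24 and 48 h.

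Tef, a Dbp relative, was strong in every array and differed from air in HeJ. Its signal in HeJ was 5383.4, 5361.8 and 5627.2 in air, 4222.1, 3073.3 and 3772.6 at 24 h, and 2720.6, 2707.6 and 3115.9 at 48 h. In OuJ it was 5469.2, 5192.9 and 5501.1 in air, 5751, 5790.4 and 4496.8 at 24 h, and 4212.3, 5217.2 and 4963.6 at 48 h. HeJ arrays of 24 and 48 h lay below HeJ air without overlap, while OuJ overlapped its air arrays at 24 and at 48 h. The differences in HeJ were -0.57 ± 0.12 and -0.94 ± 0.12, both past the threshold, against -0.02 and -0.17 (SE 0.12) in OuJ. A weaker probe set of Tef that was kept gave -0.07 ± 0.22 at 24 h and -1.01 ± 0.22 at 48 h in HeJ, so that the mean of both gave -0.32 ± 0.15 at 24 h, which did not pass. A probe set of Tef below the filter on low signals gave -0.02 and -0.32 (SE 0.27) in HeJ.

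Hlf, the third PAR bZIP gene, had signals of 439.2, 484.7 and 413.8 in HeJ air, 236.9, 218.4 and 205.8 at 24 h and 300.1, 225.7 and 211 at 48 h. In OuJ it had 470.1, 418.1 and 469.4 in air, 506.8, 469.4 and 416 at 24 h and 515.1, 477.7 and 461 at 48 h. The 6 HeJ arrays of 24 and 48 h, between 205.8 and 300.1, lay below all 18 other arrays, which started at 343.1. The HeJ differences were -0.97 ± 0.15 and -0.83 ± 0.15 and passed; those of OuJ were 0.03 and 0.10 (SE 0.15). Its weaker probe set gave -1.04 ± 0.27 and -1.06 ± 0.27 in HeJ.

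**Figure D1:**
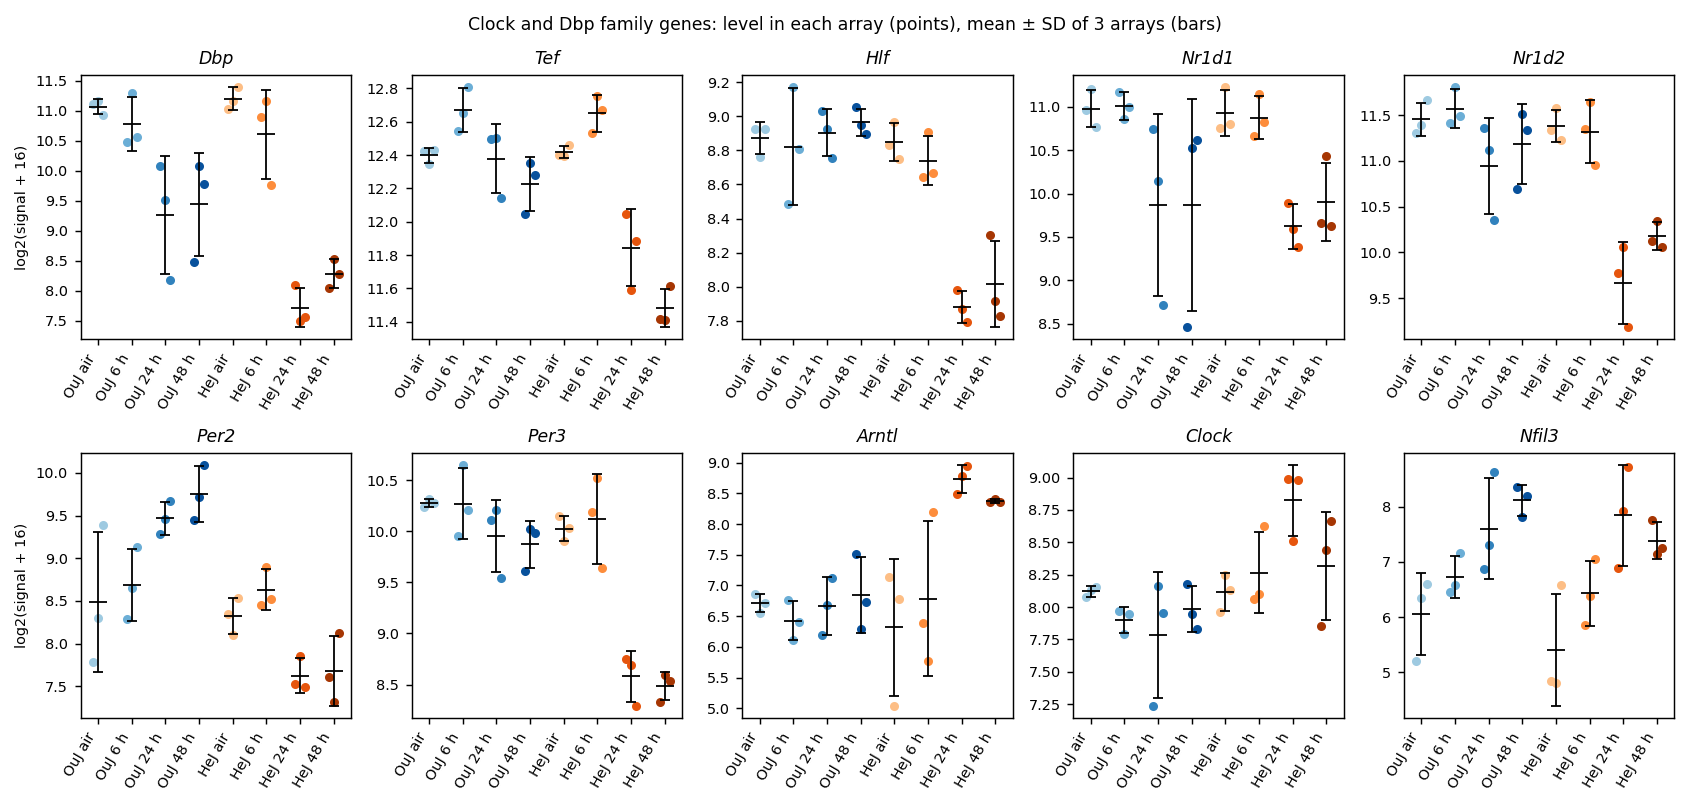
Level of each of the 10 genes as log2(signal + 16) (vertical axis, a different range in each panel) in the 8 groups of strain and exposure (horizontal axis), with 1 point per array and bars for the mean ± SD of 3 arrays. In the HeJ groups of 24 and 48 h Dbp, Tef, Hlf, Nr1d1, Nr1d2 and Per3 lie below HeJ air, and Arntl and Nfil3 lie above it. Of all genes 24.3% at 24 h and 30.8% at 48 h did not overlap HeJ air. OuJ 24 h array 3 and OuJ 48 h array 1 stand apart for Dbp and Nr1d1.

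Nr1d2, which encodes the receptor REV-ERB beta, a repressor of Arntl, was lower in HeJ. Its signal in HeJ was 2573.2, 3036.8 and 2384.1 in air, 860.5, 1049.6 and 564.8 at 24 h and 1105.1, 1287.4 and 1053.8 at 48 h. In OuJ it was 2520.6, 2663.4 and 3220 in air, 2604.8, 2211 and 1293.1 at 24 h and 1640.1, 2913.3 and 2574.6 at 48 h. All 6 HeJ arrays of 24 and 48 h lay below the 18 others, by a small margin: the highest was 1287.4, and OuJ 24 h array 3 had 1293.1. The differences from air were -1.71 ± 0.24 and -1.20 ± 0.24 in HeJ, past the threshold, and -0.51 and -0.27 (SE 0.24) in OuJ, which did not pass. Its weaker probe set gave -0.99 ± 0.34 and -1.68 ± 0.34 in HeJ.

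Nr1d1, the gene of REV-ERB alpha, did not pass in any comparison, and its spread in OuJ was wide. In OuJ the signals were 1985.4, 2335.8 and 1729.1 in air, 1700.7, 1115.9 and 403.7 at 24 h, and 335.4, 1460.2 and 1558.8 at 48 h. In HeJ they were 1706.2, 2389.5 and 1770.4 in air, 936.3, 753.2 and 649.6 at 24 h, and 791.3, 1360.5 and 773.4 at 48 h. All exposed arrays of 24 and 48 h lay below the air arrays of their strain, with the lowest signals of all in OuJ 24 h array 3 and OuJ 48 h array 1. The differences from air were -1.11 and -1.11 in OuJ and -1.31 and -1.03 in HeJ (24 and 48 h, SE 0.43). In a fit on only the groups compared, which estimates a smaller spread in HeJ, the HeJ differences passed with SEs of 0.17 and 0.21. Without OuJ 24 h array 1 the OuJ difference at 24 h was -1.55 ± 0.44 and passed, and without OuJ 24 h array 3 it was -0.53 ± 0.40. Without OuJ 48 h array 1 the difference at 48 h was -0.40 ± 0.35.

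Per3, a period gene, gave the clearest separation of the HeJ arrays. Its HeJ signals were 1117.8, 938.8 and 1028.8 in air, 414.8, 398.2 and 297.6 at 24 h and 305.9, 371 and 354.8 at 48 h. In OuJ they were 1189.2, 1259.4 and 1224.6 in air, 1085.3, 1165.2 and 731.3 at 24 h and 764.2, 1021.2 and 997.3 at 48 h. The 6 HeJ arrays of 24 and 48 h did not exceed 414.8, and no other array was below 731.3. The differences from air were -1.45 ± 0.20 and -1.54 ± 0.20 in HeJ, and both passed under every alternative tried. In OuJ they were -0.32 and -0.41 (SE 0.20) and did not pass. A weaker probe set gave -0.78 and -0.84 (SE 0.23) in HeJ, and one below the filter on low signals gave -0.51 and -0.39 (SE 0.35).

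Per2, a partner of the CRY repressors, was higher than in air in OuJ and had negative differences in HeJ. In OuJ the signals were 204.7, 298.3 and 654.5 in air, 605.9, 688.1 and 797.1 at 24 h, and 682.4, 825.2 and 1076.2 at 48 h. In HeJ they were 308.6, 258.5 and 353.7 in air, 168.9, 216.1 and 163.6 at 24 h, and 179.4, 143.2 and 262.7 at 48 h. OuJ air array 3 was high and overlapped the 24 h arrays, whereas the HeJ arrays of 24 h lay below HeJ air. The OuJ differences were 0.98 ± 0.29 at 24 h and 1.26 ± 0.29 at 48 h and passed, and those of HeJ were -0.70 and -0.64 (SE 0.29) and did not pass. The weaker probe set gave 0.88 and 1.14 (SE 0.24) in OuJ and -0.03 and -0.38 in HeJ. The 24 h call was lost in 5 of the other settings, and without OuJ air array 1 (0.63) or 2 (0.88) or without OuJ 24 h array 1 (1.07), 2 (0.98) or 3 (0.88), and the 48 h call without OuJ air array 1 (0.91) or OuJ 48 h array 3 (1.09).

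Arntl, the activator that the NR1D receptors repress, was higher in HeJ. Its signals in HeJ were 124.2, 16.9 and 93.9 in air, 344.5, 423.8 and 475.5 at 24 h and 312.6, 324.9 and 312 at 48 h. In OuJ they were 100.3, 78.2 and 89.5 in air, 56.9, 86.9 and 123.6 at 24 h and 166.5, 61.9 and 90.2 at 48 h. At 6 h they were 92.7, 53.5 and 68.5 in OuJ and 68.2, 38.6 and 276.5 in HeJ. The 6 HeJ arrays of 24 and 48 h, from 312 to 475.5, lay above all 18 others, which reached 276.5. The differences from air were 2.42 ± 0.49 and 2.06 ± 0.49 in HeJ, both past the threshold, and -0.05 and 0.13 (SE 0.49) in OuJ. The HeJ air mean rests on array 2, which was close to zero: without it the difference at 48 h was 1.42 ± 0.47 and did not pass. Arntl was above the median of all values, 218.3, in only 7 arrays, so it entered the test through the groups where it was high.

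Clock, the partner of Arntl, had signals of 232.6, 288.5 and 264.4 in HeJ air, 490.7, 348.1 and 488.6 at 24 h and 215.4, 331.2 and 388.8 at 48 h. In OuJ it had 253.8, 264.3 and 269.4 in air, 134.9, 270.8 and 232.3 at 24 h and 274.3, 230.4 and 211.8 at 48 h. On this probe set, of the groups at 24 and 48 h only HeJ at 24 h lay clear of the air arrays of its strain. That difference was 0.71 ± 0.22 and passed narrowly, while those at 48 h in HeJ (0.21) and in OuJ (-0.34 and -0.14, SE 0.22) did not. The call was lost in 7 of the other settings, both scaling alternatives among them, and without HeJ air array 1 (0.63), 2 (0.78) or 3 (0.72) or without HeJ 24 h array 1 (0.63) or 3 (0.63). The other probe set of Clock gave 0.47 ± 0.19 at 24 h in HeJ and, with the opposite sign to the one above, 0.49 ± 0.19 at 24 h in OuJ. On it the HeJ signals at 48 h, 347.8, 391.2 and 368.1, also lay above those in HeJ air, 298.1, 182 and 259.6.

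Nfil3, the repressor that opposes the Dbp family at D-boxes, was weak in air and higher after 24 and 48 h in both strains. In OuJ the signals were 20.8, 65.1 and 80.9 in air, 101.2, 141.7 and 378.3 at 24 h and 309.8, 208 and 277.5 at 48 h. In HeJ they were 12.5, 12 and 79.2 in air, 102.9, 225 and 405.7 at 24 h and 200.9, 125.9 and 136.2 at 48 h. All 12 arrays of 24 and 48 h lay above the air arrays of their strain. The differences were 1.55 ± 0.52 at 24 h, which did not pass, and 2.07 ± 0.52 at 48 h in OuJ, and 2.44 ± 0.52 and 1.98 ± 0.52 in HeJ. The OuJ call at 48 h was lost without OuJ air array 1 (1.65), OuJ 48 h array 1 (1.96) or array 3 (2.03), and the HeJ call at 48 h without HeJ air array 1 (1.70) or 2 (1.68) or HeJ 48 h array 1 (1.79), and in a fit on only the groups compared. Nfil3 was above 218.3 in only 5 arrays, all of 24 or 48 h of ozone, so it entered the test through the groups where it was high. With a pseudocount of 64 its HeJ differences were 1.59 and 1.20.

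**Figure D2:**
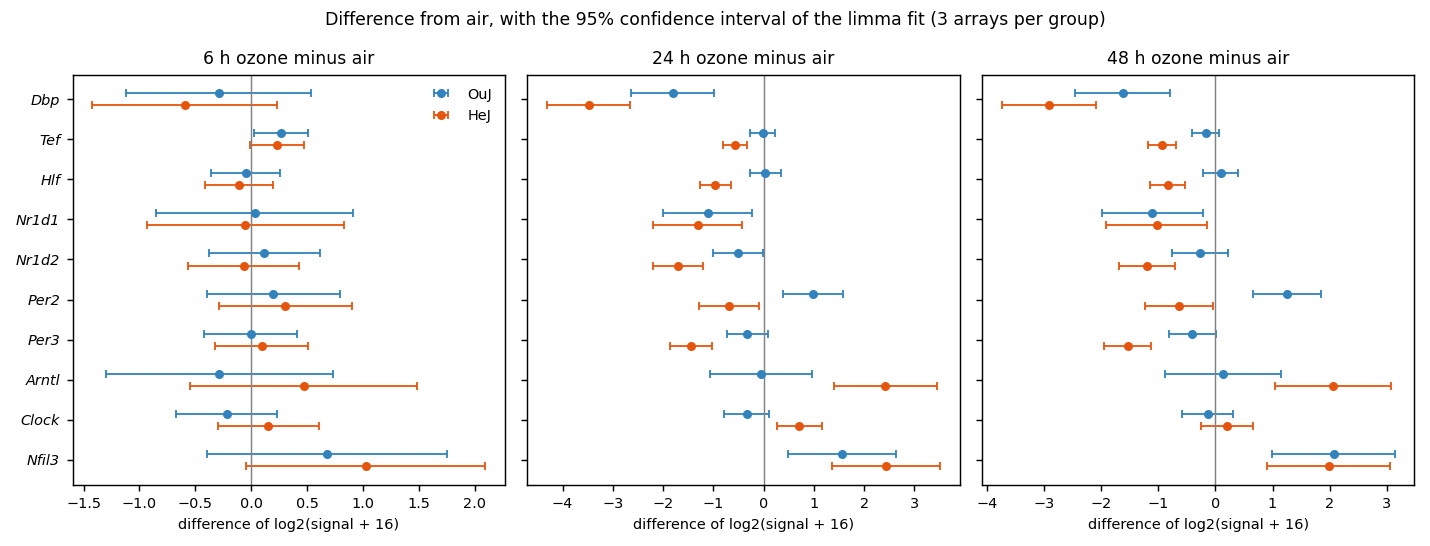
Difference from air of log2(signal + 16) (horizontal axis, a different range in each panel) for each gene (vertical axis) at 6, 24 and 48 h of ozone, OuJ in blue and HeJ in orange, with the 95% confidence interval of the limma fit. At 24 and 48 h the HeJ intervals of Dbp, Tef, Hlf, Nr1d1, Nr1d2, Per2 and Per3 lie below 0, and those of Arntl and Nfil3 above it. Per2 has opposite signs in the strains.

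Counted over the 10 members, 0 passed at 6 h in OuJ (all genes 0.137%) and 0 in HeJ (all genes 0.0375%). At an unadjusted p under 0.05 there was 1 member in OuJ, beside 838 of all 8008 genes, and 0 in HeJ, beside 723. The differences at 6 h ranged from -0.29 to 0.68 in OuJ and from -0.59 to 1.03 in HeJ, with Nfil3 the highest and Dbp the lowest in both. At 24 h 2 members passed in OuJ (all genes 6.57%) and 8 in HeJ (all genes 7.11%). At 48 h 3 passed in OuJ (all genes 7.9%) and 7 in HeJ (all genes 12.1%). Arrays whose code carries a suffix include HeJ air array 2 and HeJ 24 h arrays 1 and 3. The fit without them leaves 1 HeJ array at 24 h and drops the HeJ air array with the lowest Arntl. In that fit the 24 h HeJ calls of Hlf (-0.92), Nr1d2 (-1.23), Arntl (1.83), Clock (0.46) and Nfil3 (2.21) were lost. The members were picked on these differences, so nothing is read from the counts. The median difference of the members was -0.83 at 24 h and -0.88 at 48 h in HeJ, beside -0.02 and -0.03 over all genes. It was -0.19 and -0.15 in OuJ, beside -0.03 and -0.02. The 3 air arrays of a strain enter each of its comparisons with air.

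Between 24 and 48 h, where both groups come from a common code series, 0 members passed in either strain by limma. In OuJ 0 members had an unadjusted p under 0.05 (640 of all 8008 genes), and 0.15% of all genes passed. In HeJ 3 members had an unadjusted p under 0.05 (1667 of all 8008 genes), and 5.47% of all genes passed. Of these 3 members Tef differed by -0.36 ± 0.12, Clock by -0.51 ± 0.22 and Nr1d2 by 0.51 ± 0.24. The weaker probe sets gave -0.94 ± 0.22 for Tef and, with the opposite sign, 0.11 ± 0.19 for Clock and -0.69 ± 0.34 for Nr1d2. For the strain difference of that change 0 members and 0% of all genes passed. At an unadjusted p under 0.05 there was 1 member, beside 885 of all 8008 genes. Between the strains in air 0 members and 0.774% of all genes passed. At an unadjusted p under 0.05 there were 0 members, beside 1138 of all 8008 genes. The largest difference in air was that of Nfil3, 0.64 ± 0.52.

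The response at 24 h was set against the other strain as the OuJ change minus the HeJ change. It was 1.67 ± 0.57 for Dbp (95% confidence interval 0.50 to 2.84), 1.00 ± 0.21 for Hlf, 1.20 ± 0.34 for Nr1d2, 1.12 ± 0.28 for Per3, 1.68 ± 0.41 for Per2 and -2.47 ± 0.70 for Arntl. At 48 h it was 1.90 ± 0.41 for Per2, 0.93 ± 0.21 for Hlf, 0.76 ± 0.17 for Tef, 1.13 ± 0.28 for Per3 and -1.93 ± 0.70 for Arntl. For Nr1d1 it was 0.20 ± 0.60 at 24 h, with an interval of -1.05 to 1.45. None of these passed over all genes: by limma 0 members passed at 6 h (0.0125% of all genes), at 24 h (0.0125%) or at 48 h (0%). At an unadjusted p under 0.05 there were 0, 8 and 7 members at these times, beside 461, 626 and 658 of all 8008 genes. Without OuJ air array 3, the strain difference of Per2 was 2.13 ± 0.34 at 24 h and 2.35 ± 0.34 at 48 h and passed at both times. A call in HeJ beside none in OuJ is thus not by itself a difference between the strains. That difference was tested directly, with the result given above, and at 24 and 48 h it cannot be told apart from the code series.

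Several members moved together from array to array. Over all arrays 20 of the 45 member pairs had a Pearson r over 0.5 and 14 one under -0.5, and after subtracting each group's mean 8 and 5 did. By code series these counts were 9 and 6 in series 3, 14 and 13 in series 10, and 6 and 12 in series 13. The share over pairs of all genes was not computed, so nothing is read from these counts. OuJ 24 h array 3 and OuJ 48 h array 1 were the lowest of the 6 arrays of series 10 for Dbp, Nr1d1, Nr1d2 and Per3, and the highest for Arntl and Nfil3. At 6 h, HeJ array 3 had the lowest Dbp of series 3 (856) and the highest Arntl (276.5), with a Per3 signal of 784.2 against 1151.9 and 1453.9 in the other HeJ arrays of that time. Over the 24 arrays Dbp had a Pearson r of 0.91 with Nr1d2, 0.89 with Per3, 0.84 with Nr1d1, -0.83 with Arntl and 0.26 with Per2. After subtracting each group's mean these were 0.79, 0.83, 0.78, -0.67 and -0.02, and Dbp had 0.29 with Hlf and -0.41 with Clock. By code series (12, 6 and 6 arrays in series 3, 10 and 13) Dbp with Arntl had -0.64, -0.91 and -0.86, Dbp with Nr1d2 0.55, 0.98 and 0.63, and Dbp with Nr1d1 0.09, 0.97 and 0.78. Dbp with Per3 had 0.64, 0.89 and 0.19, and Dbp with Tef had -0.41, 0.81 and -0.35. These are descriptions of genes chosen for their pattern, measured on the same arrays.

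**Figure D3:**
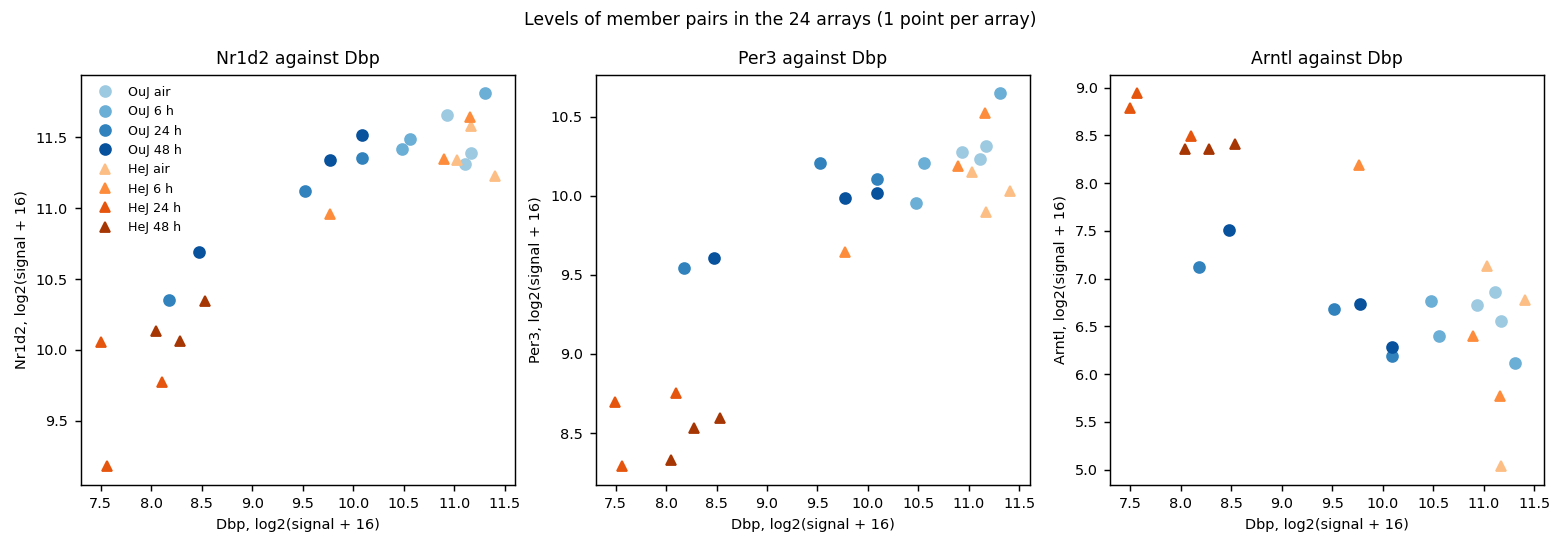
Nr1d2, Per3 and Arntl (vertical axes) against Dbp (horizontal axes), all as log2(signal + 16), with 1 point per array, circles for OuJ and triangles for HeJ. Nr1d2 and Per3 are low and Arntl is high where Dbp is low, and OuJ 24 h array 3 and OuJ 48 h array 1 lie between the other OuJ arrays and the HeJ arrays of 24 and 48 h for Nr1d2 and Per3.

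In the order of group means, Dbp, Tef, Hlf, Nr1d2, Per2 and Per3 had their lowest levels in the HeJ groups of 24 and 48 h, and Arntl and Clock their highest in these same groups. Most neighbours in the order overlapped in their arrays: all 7 neighbouring pairs for Dbp, Clock and Nfil3, 6 of 7 for Tef, Hlf, Nr1d1, Per2 and Per3, and 5 of 7 for Nr1d2 and Arntl. HeJ 24 h and HeJ 48 h were neighbours at the end of the order for those 8 genes. For Arntl all 6 arrays of these groups exceeded every other array.

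Other genes of the clock pathway were taken from lists of 39 genes that excluded the members, of which 29 had a probe set and 21 were tested. Cry2, a repressor that pairs with PER proteins, fell at 48 h in HeJ. Its signals there were 247.5, 182.7 and 216.4 against 506.2, 618.2 and 446.8 in air and 477.5, 311 and 476.7 at 24 h, so that the 48 h arrays lay below both groups. The fall by 1.22 ± 0.18 from air (limma adjusted p 0.000103, 3 of 3 arrays) held in all 19 alternatives tried, with adjusted p between 4.36e-05 and 0.00161. From 24 to 48 h, within series 13, Cry2 fell by 0.90 ± 0.18 (limma adjusted p 0.00553). That call was lost without the arrays whose code has a suffix, HeJ 24 h arrays 1 and 3 among them, where the difference was -0.51.

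Per1, the most readily induced of the period genes, was 630.2, 890.5 and 625.3 at 48 h in HeJ against 939.4, 1318.8 and 1338.2 in air. It fell by 0.73 ± 0.18 (limma adjusted p 0.0101, 3 of 3 arrays), a call lost without HeJ air array 2 (-0.66) or 3 (-0.65) or HeJ 48 h array 1 (-0.65). At 6 h in OuJ Per1 was 2233.3, 1910.8 and 1933.5 against 1048.7, 1286.9 and 1347.6 in air, a difference of 0.72 ± 0.18 (limma adjusted p 0.0753) that did not pass though the groups did not overlap. In that comparison 17% of all genes did not overlap. Bhlhe40, a repressor of CLOCK and ARNTL activity, rose at 48 h in OuJ by 0.65 ± 0.20 (limma adjusted p 0.0449), and that call was lost without any 1 of the 3 OuJ air arrays (0.53 to 0.74) and without OuJ 48 h array 2 (0.58) or 3 (0.52). Of the 5 core loop genes tested 0 passed at 24 h in either strain by limma. At an unadjusted p under 0.05 there was 1 in OuJ, beside 1594 of all 8008 genes, and 0 in HeJ, beside 1748.

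Among clock-controlled outputs, Tspan4 fell in HeJ by 1.07 ± 0.24 at 24 h (limma adjusted p 0.0079) and by 0.76 ± 0.24 at 48 h (limma adjusted p 0.0416). The 24 h call held in all 19 alternatives, and the 48 h call was lost in 9, among them the fits without any 1 of the HeJ air arrays (-0.62 to -0.86) or without HeJ 48 h array 1 or 2 (-0.70 each). Tsc22d3, a glucocorticoid-induced gene, rose in OuJ by 1.00 ± 0.28 at 24 h and 1.11 ± 0.28 at 48 h and in HeJ by 0.92 ± 0.28 at 24 h, with limma adjusted p of 0.0313, 0.0131 and 0.0438. At 24 h the OuJ call was lost without any 1 of the arrays compared but OuJ air array 3 (0.84 to 1.05), and the HeJ call without any 1 but HeJ air array 2 (0.63 to 1.02). The 48 h call in OuJ was lost without OuJ air array 1 (0.96) or OuJ 48 h array 3 (1.11). From 24 to 48 h Tsc22d3 fell in HeJ by 1.17 ± 0.28 (limma adjusted p 0.0178), a call lost without HeJ 24 h array 1 (-1.07) or HeJ 48 h array 1 (-1.03). Nampt, an enzyme of NAD synthesis, rose at 24 h by 0.61 ± 0.17 in OuJ and 0.63 ± 0.17 in HeJ, and the OuJ call was lost without any 1 of the 6 arrays compared (0.51 to 0.68). The HeJ call was lost without HeJ air array 1 or 2 (0.59 each) or HeJ 24 h array 1 (0.55) or 3 (0.56). In the fit without the arrays whose code has a suffix the difference was 0.27. That fit drops both of these HeJ 24 h arrays and also HeJ air array 2.

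Of the reported PAR bZIP targets only 3 of 8 could be tested. Alas1, the first enzyme of haem synthesis, rose in OuJ by 0.66 ± 0.17 at 24 h and 0.64 ± 0.17 at 48 h (limma adjusted p 0.0247 and 0.0249), and was not past the threshold in HeJ. The 24 h call was lost without OuJ air array 1 (0.62) or 3 (0.63) or OuJ 24 h array 1 (0.59) or 2 (0.60), and the 48 h call without OuJ air array 1 (0.60) or 3 (0.61) or OuJ 48 h array 1 (0.65) or 3 (0.59). With the mean of its probe sets the differences were 0.41 ± 0.16 and 0.48 ± 0.16 (limma adjusted p 0.134 and 0.0638). Cyp2b10 fell by 0.74 ± 0.17 from 24 to 48 h in HeJ (limma adjusted p 0.0138), and was -0.28 without HeJ 24 h arrays 1 and 3. Leaving out HeJ 24 h array 1 (-0.66) or 3 (-0.59) or HeJ 48 h array 2 (-0.70) each ended the call. Of the 8 modifiers of clock proteins tested 0 passed in any comparison by limma. The smallest p-values among them were those of the kinase gene Csnk1e, 0.43 ± 0.13 at 24 h in OuJ (limma adjusted p 0.0533, unadjusted 0.00362) and 0.39 ± 0.13 at 24 h in HeJ (adjusted p 0.0769), and of Sirt1, 0.48 ± 0.18 at 24 h in OuJ (adjusted p 0.132).

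Over the 21 genes, 3 rose and 0 fell in OuJ at 24 h (all genes 6.57%) and again at 48 h (all genes 7.9%). In HeJ 2 rose and 1 fell at 24 h (all genes 7.11%), and 3 fell and 0 rose at 48 h (all genes 12.1%). From 24 to 48 h 4 fell in HeJ (all genes 5.47%), the fourth of them Per1 by 0.62 ± 0.18 (limma adjusted p 0.0465), which passed in 7 of 20 alternatives and not in the fit within series 13 (adjusted p 0.0586). At 6 h 0 passed in each strain by limma, beside 0.137% of all genes in OuJ and 0.0375% in HeJ. At an unadjusted p under 0.05 there were 4 in each strain, beside 838 of all 8008 genes in OuJ and 723 in HeJ. The median difference of the 21 genes was 0.27 and 0.19 in OuJ and 0.03 and -0.04 in HeJ at 24 and 48 h.

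**Figure D4:**
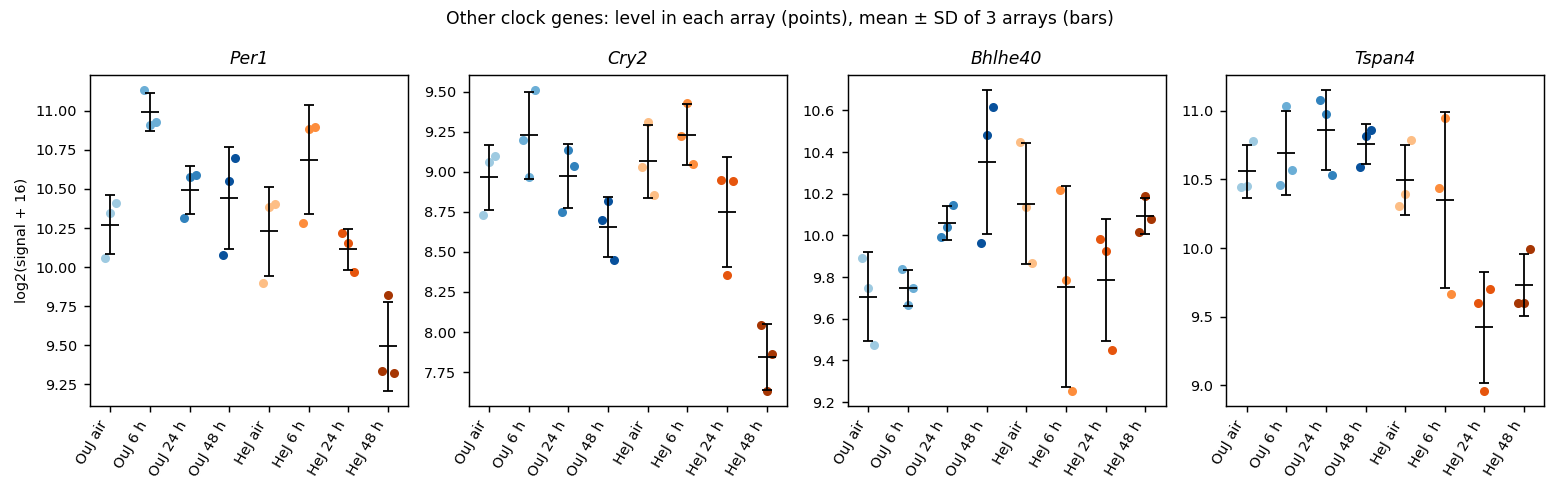
Level of Per1, Cry2, Bhlhe40 and Tspan4 as log2(signal + 16) (vertical axis, a different range in each panel) in the 8 groups (horizontal axis), with 1 point per array and bars for the mean ± SD of 3 arrays. Cry2 is lowest in the 3 HeJ arrays of 48 h, and Tspan4 is low in HeJ at 24 and 48 h but not in OuJ.

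Of the genes tested that are not members, those most like Dbp over the 24 arrays were Ephx1, an epoxide hydrolase (r 0.92), Pigp (0.91), Coro1a, a leukocyte actin regulator (0.88), Slc1a5 (0.87), Chst2 (0.87) and Satb1 (0.86). The most opposed were Socs3, an inhibitor of cytokine signalling (-0.91), Myd88, the adaptor of Tlr signalling (-0.90), Ccl17 (-0.88) and Kcnk1 (-0.88). The same measure for Arntl gave Eln, the elastin gene (0.81), Cdcp1 (0.79), Myd88 (0.79), Peg3 (0.79), Nupr1 (0.79) and Plin2 (0.77), and at the other end Ephx1 (-0.85), Slc1a5 (-0.84), Tspan4 (-0.83) and Apbb2 (-0.80). The arrays share the code series and the exposure groups, and within series 13 alone the r of Dbp with Ephx1 was -0.03 and with Socs3 -0.23.

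Markers of other cells moved at the same times. The 3 B cell markers measured fell at 24 and 48 h in both strains (3 of 3 passed in each), their summed signal going from 2014.4 to 2653.7 in OuJ air to 390.6 to 831.6 at 24 h, and from 2166.2 to 2760.3 in HeJ air to 775 to 1306.8 at 24 h. Neutrophil markers fell in OuJ (2 of 3 passed at 24 and at 48 h). Of 3 T cell markers 2 fell in OuJ at 24 h and 2 in HeJ at 48 h. Of the 8 lung markers 1 fell in HeJ at 24 h, and 2 fell in each strain at 48 h. Alas2, the red cell marker, fell in HeJ at 48 h by 1.02 ± 0.22 (limma adjusted p 0.00352). From 24 to 48 h in HeJ Actc1, 1 of 4 cardiac markers, fell by 0.90 ± 0.24 (adjusted p 0.0329), and 1 lung marker rose and 1 fell. Of all genes 6.57% and 7.9% passed in OuJ and 7.11% and 12.1% in HeJ at 24 and 48 h. No marker of these lists was at 0. In a whole lobe, fewer cells of a type and less RNA per cell cannot be told apart. Of 10 glucocorticoid-responsive genes, which include Per1 and Tsc22d3, 5 rose in OuJ (all genes 6.57%) and 6 in HeJ (all genes 7.11%) at 24 h, and 2 rose in OuJ (all genes 7.9%) and 2 fell in HeJ (all genes 12.1%) at 48 h. At 6 h all 10 differences were positive in each strain, and 1 passed in OuJ (all genes 0.137%) and 0 in HeJ (all genes 0.0375%). From 24 to 48 h 5 fell in HeJ (all genes 5.47%) and 0 passed in OuJ (all genes 0.15%). The 5' to 3' signal ratio of Gapdh, a sign of RNA quality, was 0.843 ± 0.080 in OuJ air and 0.851 ± 0.085 at 24 h, and 0.558 ± 0.057 in HeJ air, 0.753 ± 0.174 at 24 h and 0.593 ± 0.088 at 48 h (SD, n = 3). The part of these in the differences of the clock genes was not tested.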

How the data were processed

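Left lung lobes of 24 individual male mice were measured on 1 Affymetrix array each, with groups taken from the labels. The deposited signal intensity values are on a linear scale and were made by the authors with GCOS 1.4, per the submitters' processing notes; trimming 2% at each end gave array means from 500.144 to 500.166. Detection calls were not used here, and the number of arrays limits the precision.

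A probe set was kept if 3 arrays or more exceeded 218.3, the median of the whole matrix (12895 in all), and for each gene with 1 symbol the probe set with the highest mean was used, which gave 8008 genes. For the members 17 of 19 probe sets were kept, all but 1 of Tef and 1 of Per3. Group means were estimated from log2(intensity + 16) of all 24 arrays (limma, version 3.58.1, and data.table, version 1.17.8, under R 4.3.3), with an intensity trend in the variances, and 13 comparisons were adjusted by the Benjamini-Hochberg method over the 8008 genes. P-values are two-sided. The fit was tested on simulated data. Replicates are separate mice, per the labels.

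The members and gene lists were chosen with earlier results of these data known. Named are every member with its probe sets; of each other list up to 4 genes that passed with the smallest p in a comparison, or up to 3 if none passed; the 6 genes most like and 4 most opposed to Dbp and to Arntl; and Tlr4. The analysis was repeated with median centring or quantile normalization, with pseudocounts of 1 and 64, without the filter, with one based on mean signal, the mean of a gene's probe sets, all kept probe sets, no intensity trend, array weights, a fit on only the groups compared or within a code series, leaving out arrays whose code has a suffix, the replicate number as a block, and leaving out each array. For the other clock genes they were added after seeing the data. The 72 h exposure that the labels mention was not analysed here.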

Additional observations from a re-analysis of the deposited data

How the results depend on the processing

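The number of members past the threshold kept within 1.5 times its value in the comparisons and alternatives not named here. At 24 h in OuJ 1 member passed in place of 2 with no filter, with no intensity trend, with array weights and in a fit on only the groups compared. At 24 h in HeJ fewer than 8 passed without the arrays whose code has a suffix. That fit drops HeJ air array 2 and leaves 1 HeJ array at 24 h, assumed to vary like the other groups. From 24 to 48 h in HeJ 1 passed (Tef) in place of 0 with quantile normalization, the mean of probe sets, all kept probe sets or array weights. For the strain difference at 48 h 3 passed with array weights (Tef, Hlf and Per2) and 2 in a fit on only the groups compared (Tef and Per3). Leaving out each array in turn gave 0 to 2 members at 24 h and 1 to 3 at 48 h in OuJ, 7 to 8 and 5 to 7 in HeJ, and 0 to 1 from 24 to 48 h in HeJ and for the strain differences at 24 and at 48 h. For the other clock genes 16 of 273 tests over all comparisons passed, 10 with no filter, 10 without the arrays with a suffix, and 10 to 21 when each array was left out. The cause of these shifts was not tested, apart from the fewer arrays or the larger number of genes that a setting itself brings. Recomputed member differences moved by less than the spread between replicates in 2660 cases and by more in 44, and no called difference changed sign. Median centring moved the median of all genes by -0.10 for the strain difference of the change from 24 to 48 h.

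Over all genes, same-numbered arrays of different groups had low residual correlations. These were over 0.1 in 2, 1 and 6 of 28 pairs for the numbers 1, 2 and 3. This check does not settle whether single members follow the replicate number, which was not tested. With the replicate number as a block 3 members passed at 24 h in OuJ, 8 at 24 h and 7 at 48 h in HeJ. The SE of Nfil3 at 24 h in OuJ was then 0.40 in place of 0.52, and its difference of 1.55 passed. Weak signals limit Arntl and Nfil3 in air, where values lie near the pseudocount.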
